A study of Arabidopsis thaliana with 27 samples.

Results

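Epi 10 is an Arabidopsis epi-line. Leaves of 3 Epi 10 plants were compared with those of 3 Col-0 WT plants at bolting, the stage when the flowering stem starts to grow. These 6 RNA-seq libraries of 27 in the series were chosen by their labels, and 20052 of the 33977 genes in the files had enough reads to be tested. Epi 10 was an F3 family obtained by pollinating Col-0 WT with an msh1 T-DNA mutant of the third generation, selfing the F1, and selfing F2 plants that carried MSH1 again. Its plants were therefore not msh1 mutants, and they stood for 1 family rather than for epi-lines in general. Leaves of 3 plants of Epi 8, an F3 family from another cross of the same design, entered the fit to estimate the spread. Their values are given beside Epi 10 for some genes and lists, and the difference between the lines was tested for single genes only. All 3 groups were in the Col-0 background, and the methods give a growth daylength of 12 h. They describe leaf sampling only for Epi 8 and WT, at an age of 4 weeks, so the growth of the Epi 10 leaves is known here from the labels alone.

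MSH1 encodes a MutS homolog that acts in plastids and mitochondria, where it limits rearrangement of the organelle genomes. Its loss changes growth, stress responses and nuclear DNA methylation, and crosses of msh1 plants with WT give progeny with a normal MSH1 gene that can inherit altered methylation and growth. The comparison asked which leaf genes differed in expression between such progeny and WT.

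Each leaf library held between 48098795 and 90808615 gene counts (Epi 10: 68231390 to 89869258, WT: 74280022 to 90808615). At these depths 3 counts corresponded to 0.0336 to 0.0449 CPM in Epi 10 and 0.0342 to 0.0402 CPM in WT, a limit that covers counting error only, because reads copied by PCR are not separate molecules. CPM are counts set to a common library size after TMM scaling. On the first principal component (33% of the variance) plant 3 of Epi 8 stood apart, with the lowest mean correlation with the other leaf libraries (0.976), and on the second plant 1 of Epi 10 did. Markers of leaf mesophyll were abundant in all plants, summing to 28820 to 32100 CPM in Epi 10 and 29060 to 36940 CPM in WT over 5 genes. The 11 root markers summed to 35.7 to 39.9 CPM in Epi 10 and 31.0 to 33.1 CPM in WT, nearly all from SHR and SCR (log2FC 0.12 and 0.21), which are also expressed in leaf, and PLT1, PLT2, EXPA7 and EXPA18 had no reads. The 6 flower markers summed to 1.33 to 1.71 CPM in Epi 10 and 1.27 to 1.77 CPM in WT, and of the 4 shoot meristem markers WUS and CLV3 had no reads. Guard cell markers summed to 66.2 to 83.9 CPM in Epi 10 and 73.8 to 78.8 CPM in WT, and markers of secondary walls of the stem to 34.1 to 47.5 CPM in Epi 10 and 41.6 to 51.9 CPM in WT. In bulk leaf, fewer cells of a type and less RNA per cell cannot be told apart.

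MSH1 (AT3G24320, TAIR10.1 chromosome 3, 8822924 to 8829728, minus strand) was at 18.1, 18.6 and 17.62 CPM in the Epi 10 plants, against 20.6, 16.1 and 15.7 CPM in the WT plants. The Epi 10 plants lay within the range of WT. The log2FC of Epi 10 over WT was 0.05 (SE 0.113, edgeR adjusted p = 0.906). No library here was labelled as an msh1 mutant.

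No gene passed the test between Epi 10 and WT leaf. A gene was called at a Benjamini-Hochberg FDR under 0.05 and an absolute log2FC of at least 0.5 in edgeR's quasi-likelihood test, and the share called was 0% of 20052 genes. The smallest FDR was 0.361, of AT3G24420. At an unadjusted p under 0.05, 1409 genes were counted, 595 with a higher level in Epi 10 (2.97%) and 814 with a lower one (4.06%). Adding the fold limit left 256 higher (1.28%) and 196 lower (0.977%). In 1271 genes (6.34%) all Epi 10 plants lay above all WT plants, and in 1491 genes (7.44%) all lay below. Most genes were close to WT, as 91.4% had an absolute log2FC under 0.5, with a median SE of 0.141, and 47.4% of all genes had a positive log2FC.

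The count of 0 depended on the test. DESeq2 called 21 genes (0.105%), 10 higher and 11 lower, edgeR's likelihood ratio test called 17, and the quasi-likelihood test on the 6 Epi 10 and WT libraries alone called 3, which were AT1G22550 and AT3G24420 higher and QQS lower. Without plant 3 of Epi 8, whose leaves add only to the estimate of the spread, AT1G22550 and AT3G24420 were called and 2237 genes had an unadjusted p under 0.05, and without plant 2 of Epi 8, QQS was called. Without plant 2 of Epi 10 the number at an unadjusted p under 0.05 was 547, and without plant 2 of WT it was 750. Since no gene was called, the levels below are given as values, and an unadjusted p under 0.05 is a count to be read against the shares above. The adjusted p of AT3G24420 was 0.361 and that of QQS 0.454, and of every other gene named below with an unadjusted p under 0.05 it was 0.683 between Epi 10 and WT. The labels give each library as a separate plant.

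**Figure D1:**
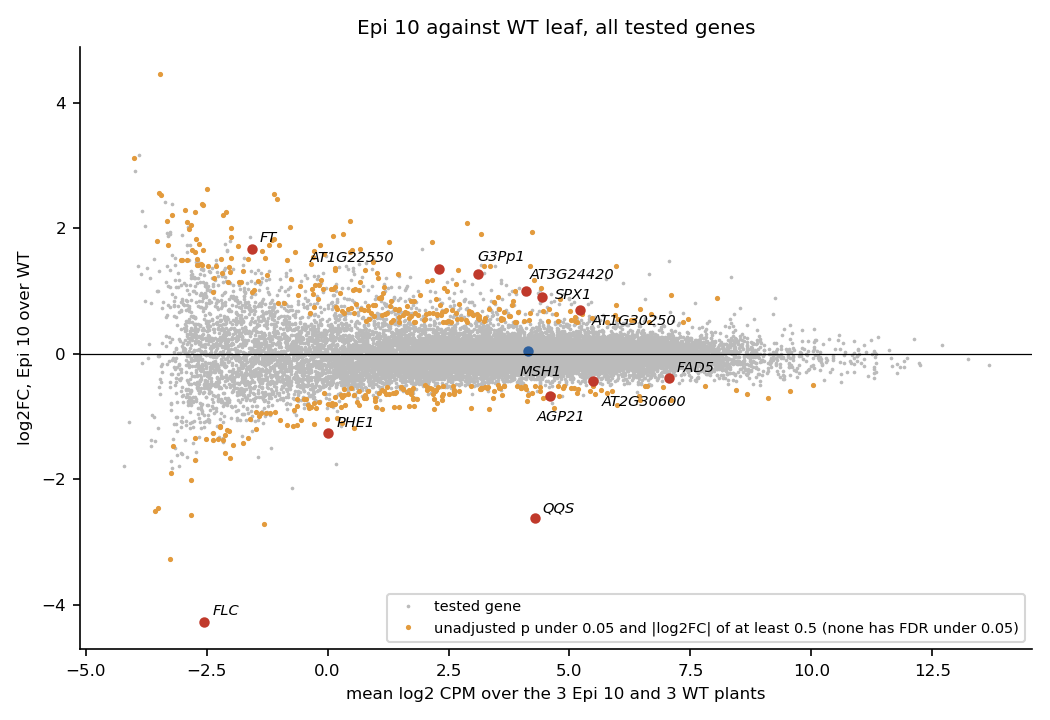
Log2FC of Epi 10 over WT leaf (y axis) against the mean log2 CPM of the 6 plants (x axis) for the 20052 tested genes, each a grey point, with the 452 genes at an unadjusted p under 0.05 and an absolute log2FC of at least 0.5 in orange. Named genes are in red and MSH1 in blue, with QQS at -2.62 and FLC at -4.27 the lowest of those named.

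AT3G24420 encodes an alpha/beta-hydrolase family protein and had the smallest p of all genes. It was at 24.9, 23.9 and 24.0 CPM in Epi 10, against 13.3, 12.2 and 11 CPM in WT. Every Epi 10 plant was well above every WT plant (log2FC 1.00, SE 0.136, adjusted p = 0.361). The gene lies on chromosome 3 (8862813 to 8865239, minus strand), 33.1 kb from MSH1. In Epi 8 it was at 27.98, 21.7 and 19.2 CPM, and the test between Epi 10 and Epi 8 gave a log2FC of 0.08 (SE 0.134, adjusted p = 0.939). AT3G24420 and the other genes chosen for the smallest p in each direction had to show no overlap between Epi 10 and WT plants. Their lack of overlap was therefore set by the choice. Of all genes, 6.34% lay above WT without overlap and 7.44% below.

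AT1G22550, a member of the major facilitator superfamily of membrane transporters, was at 8.39, 7.85 and 7.46 CPM in Epi 10, against 2.79, 3.45 and 3.00 CPM in WT. All Epi 10 plants were more than 2-fold above all WT plants (log2FC 1.36, SE 0.251, adjusted p = 0.683). Epi 8 was at 3.15, 3.56 and 1.55 CPM, close to WT, and the log2FC of Epi 10 over Epi 8 was 1.51 (SE 0.253, adjusted p = 0.307). AT1G30250, an uncharacterized protein, was at 48.0, 49.0 and 44.5 CPM in Epi 10, against 28.6, 31.4 and 27.5 CPM in WT (log2FC 0.69, SE 0.115). The groups did not overlap, as the choice of both genes required. Epi 8 with 56.2, 41.8 and 44.1 CPM was on the side of Epi 10.

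QQS, an orphan gene of Arabidopsis that affects the split of carbon and nitrogen between starch and protein, had the smallest p of the genes lower in Epi 10. It was at 5.89, 8.93 and 9.09 CPM in Epi 10, against 50.3, 60.8 and 36.1 CPM in WT. No overlap was a condition of its choice, and the highest Epi 10 plant was below the lowest WT plant by a wide margin (log2FC -2.62, SE 0.396, adjusted p = 0.454). Epi 8 plants were also low, at 14.1, 3.99 and 12.6 CPM, and the log2FC of Epi 10 over Epi 8 was -0.35 (SE 0.383, adjusted p = 0.905).

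PHE1, a MADS-box gene known as an imprinted gene of the seed, was at 0.569, 0.705 and 0.633 CPM in Epi 10, against 1.65, 1.72 and 1.23 CPM in WT. The level was low in both groups and the plants did not overlap, as the choice required (log2FC -1.27, SE 0.261). Epi 8 was at 0.610, 0.737 and 0.587 CPM, and the log2FC of Epi 10 over Epi 8 was -0.02 (SE 0.266, adjusted p = 0.992). PHE1 has a close copy, PHE2, and reads that fit both were not counted, because only unique alignments were kept. FAD5, which desaturates palmitic acid in chloroplast lipids, was at 117, 113 and 116 CPM in Epi 10, against 151, 150 and 154 CPM in WT (log2FC -0.39, SE 0.074). Its plants varied little within each group, and the groups did not overlap, as the choice required.

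AGP21, an arabinogalactan protein of the cell surface, was at 19.3, 18.04 and 20.1 CPM in Epi 10, against 30.1, 34.6 and 26.9 CPM in WT (log2FC -0.67, SE 0.136). Epi 8 was lower than both, at 12.7, 12.7 and 9.35 CPM (log2FC of Epi 10 over Epi 8 0.72, SE 0.137, adjusted p = 0.307). AT2G30600, a BTB/POZ domain protein, was at 37.6, 38.3 and 40.2 CPM in Epi 10, against 53.4, 53.5 and 50.1 CPM in WT (log2FC -0.44, SE 0.083). Both genes overlap a gene on the other strand, and the library kit did not keep strand. Reads in the shared stretch therefore cannot be told apart, and reads marked as ambiguous were not counted.

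**Figure D2:**
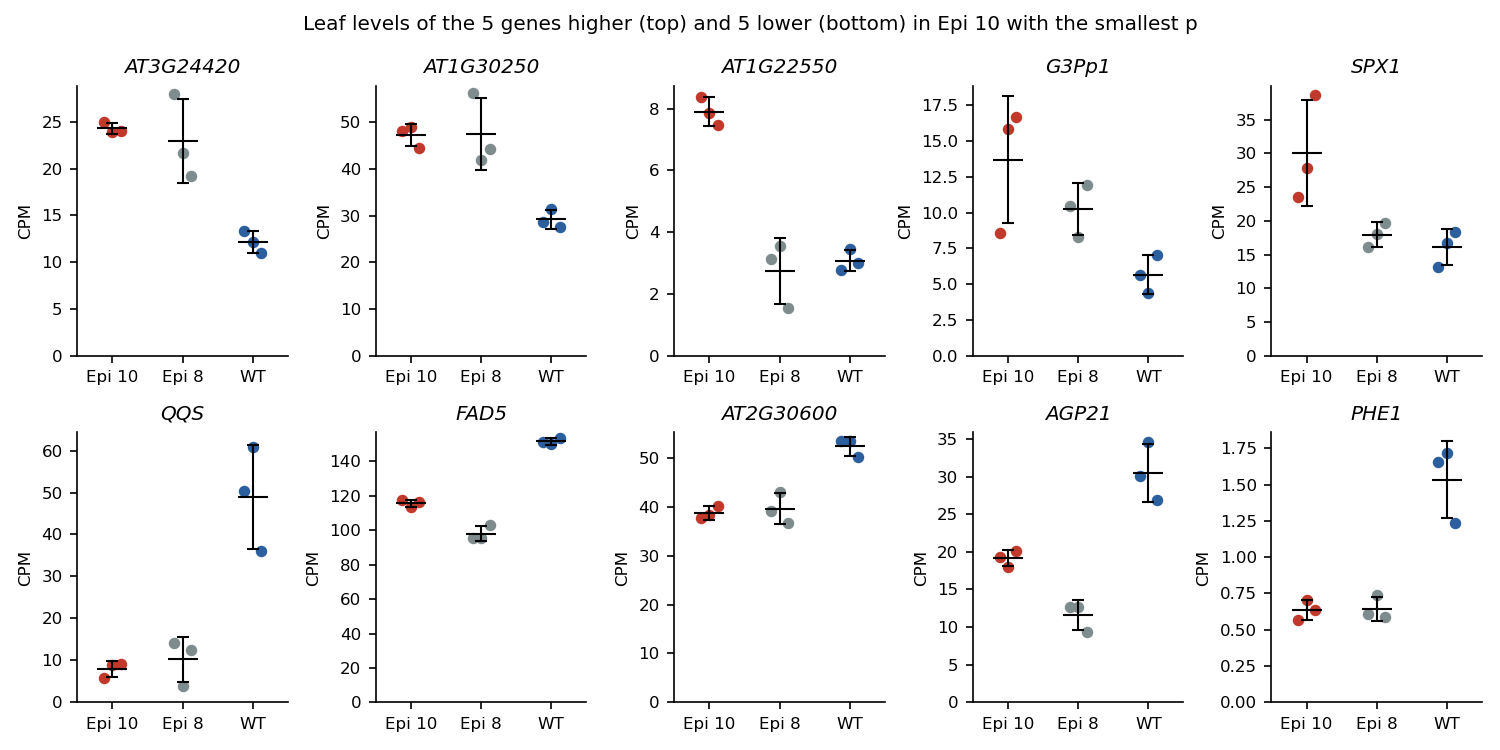
CPM (y axis, from 0) of the 5 genes higher and the 5 genes lower in Epi 10 with the smallest p, for the 3 plants each of Epi 10, Epi 8 and WT (points), with mean and SD (bars). The genes were chosen to have no overlap between Epi 10 and WT plants, and in AT1G22550 and SPX1 the Epi 8 plants lie nearer to WT.

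Of the 5 genes with the smallest p among those higher in Epi 10, SPX1 belongs to the response to phosphate starvation, and G3Pp1, outside the list used here, is annotated as a putative glycerol-3-phosphate transporter. In plants, SPX proteins sense the phosphate state of the cell and restrain the transcription factor PHR1, which binds a short sequence called P1BS in the promoters of starvation genes. SPX1 itself was at 23.59, 27.9 and 38.7 CPM in Epi 10, against 13.2, 16.7 and 18.4 CPM in WT. The lowest Epi 10 plant was above the highest WT plant, as the choice by smallest p without overlap required (log2FC 0.90, SE 0.183, adjusted p = 0.683). Epi 8 was at 16.1, 18.1 and 19.7 CPM, and the log2FC of Epi 10 over Epi 8 was 0.74 (SE 0.183, adjusted p = 0.454). G3Pp1 was at 8.60, 15.8 and 16.7 CPM in Epi 10, against 5.62, 4.36 and 7.03 CPM in WT (log2FC 1.27, SE 0.258).

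PAP17, a purple acid phosphatase that releases phosphate from organic compounds, was at 28.7, 40.9 and 45.4 CPM in Epi 10, against 19.2, 17.3 and 26.2 CPM in WT (log2FC 0.88, SE 0.206). PS2, a pyrophosphatase chosen here after its values were seen, was at 2.202, 1.77 and 1.83 CPM in Epi 10, against 1.08, 1.18 and 1.08 CPM in WT (log2FC 0.79, SE 0.210). In both genes the plants of the 2 groups did not overlap. Of the 15 phosphate genes 13 were tested, 11 with a positive log2FC, and 4 were higher and 1 lower at an unadjusted p under 0.05 (30.8% and 7.69%, against 2.97% and 4.06% of all genes). The median log2FC of the list was 0.15, against -0.01 for all genes. The gene with the lower level was MGD3, which makes galactolipids that replace phospholipids during starvation (log2FC -0.44, SE 0.188). Members for uptake and lipid exchange were near WT, such as the phosphate transporter PHT1;4 (0.02), SQD1 (0.10) and SQD2 (0.00). Over the settings that left out 1 library in turn, 3 to 5 members had a higher level at an unadjusted p under 0.05, and the median was 0.02 without plant 2 of WT and 0.36 without plant 3 of WT. The lists and their members were chosen with earlier results of these data known. Shares and medians of this list and of those below are therefore descriptions and not tests. SPX1 in this list was also picked by its p.

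The P1BS word GNATATNC, searched on both strands in the 300 bases before the annotated gene start, occurred in 2 of the 13 tested phosphate genes (15.4%), against 6.5% of 20046 promoters of tested genes; the word was added after the values had been seen. SPX1, PAP17 and G3Pp1 had no match in this window. The 2 matches are shown because 1 of them belongs to PS2, with the word in capitals, from the TAIR10.1 genome of RefSeq. PS2 is read on the minus strand at chr1:27466548-27466575, where the word starts 217 bases before the gene start, and MGD2 on the plus strand at chr5:6896439-6896462.
PS2: ttgggtaacgGAATATTCttctcttatt
MGD2: atatactactGAATATTCttttgt
The word is a description of the letters and not of a bound factor. MGD2, which carries the same word, had a log2FC of -0.16 (SE 0.141).

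Nitrate and nitrogen assimilation genes mostly had a positive log2FC. Nitrate reductase turns nitrate into nitrite, the first step of its assimilation, and Arabidopsis has a pair of genes for it. NIA2, the major form, was at 309, 436 and 336 CPM in Epi 10, against 190.5, 180 and 214 CPM in WT. NIA1 was at 33.5, 37.7 and 22.8 CPM in Epi 10, against 16.1, 11.2 and 18.21 CPM in WT. In both genes all Epi 10 plants exceeded all WT plants (NIA2: log2FC 0.89, SE 0.193; NIA1: log2FC 1.05, SE 0.266). DESeq2 called both genes, and edgeR's likelihood ratio test called NIA2. In Epi 8, NIA2 was at 289, 243 and 417 CPM, and the log2FC of Epi 10 over Epi 8 was 0.19 (SE 0.191, adjusted p = 0.901).

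Of the 19 nitrogen genes 17 were tested and 16 had a positive log2FC, with a median of 0.23. At an unadjusted p under 0.05, 3 of the 17 were higher and 0 lower, against 2.97% and 4.06% of all genes. The third was ASN2, an asparagine synthetase, with 112, 132 and 132 CPM in Epi 10, against 106, 102 and 104 CPM in WT (log2FC 0.27, SE 0.089). NIR1, the nitrite reductase of the next step, had a log2FC of 0.12 (SE 0.105), the transporter NRT1.1 0.06 (SE 0.105), and GLN2, the plastid glutamine synthetase, -0.14 (SE 0.105). Leaving out 1 library in turn, 3 to 5 members were higher at an unadjusted p under 0.05, 5 of them without plant 1 of Epi 10 or plant 1 of WT, and the median stayed between 0.13 and 0.27.

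The lowest log2FC of all tested genes was that of FLC, a MADS-box repressor that keeps FT off in leaves. It gave 3, 2 and 1 reads in the Epi 10 plants, against 42, 30 and 56 reads in the WT plants. The level was low in both groups and did not overlap, and the summed, scaled reads of Epi 10 were 0.0489 of those of WT (exact 95% interval 0.0176 to 0.109, counting error only). The fitted log2FC was -4.27 (SE 0.98), a value that depends on how reads near 0 are treated. FLC was at 0.0449, 0.0224 and 0.0141 CPM in Epi 10 and 0, 0.0695 and 0.294 CPM in Epi 8, with overlap, and the log2FC of Epi 10 over Epi 8 was -1.98 (SE 1.11). FLC overlaps an antisense RNA gene, AT5G01675, and in the shared stretch the reads of the pair cannot be told apart.

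FT, the mobile protein made in leaf veins that starts flowering, gave 27, 45 and 55 reads in Epi 10, against 13, 16 and 12 reads in WT. As CPM this was 0.405, 0.504 and 0.774 in Epi 10, against 0.148, 0.215 and 0.161 in WT. Every Epi 10 plant was above every WT plant (log2FC 1.68, SE 0.394). Epi 8 was at 0.482, 0.584 and 0.713 CPM, and the log2FC of Epi 10 over Epi 8 was -0.08 (SE 0.369, adjusted p = 0.985).

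Other members of the list were described after their values were seen. FUL, a MADS-box gene downstream of FT, was at 12.0, 8.62 and 8.16 CPM in Epi 10, against 5.54, 6.99 and 5.83 CPM in WT (log2FC 0.65, SE 0.163). MAF5, a relative of FLC, was at 0.0749, 0.145 and 0.366 CPM in Epi 10, against 2.87, 0.241 and 0.737 CPM in WT, where plant 1 alone was high and the groups overlapped. MAF4 was at 1.15, 0.582 and 0.731 CPM in Epi 10, against 0.90, 1.99 and 2.14 CPM in WT, also with overlap (log2FC -1.03, SE 0.446). SOC1, which integrates flowering signals, was at 66.7, 86.2 and 95.4 CPM in Epi 10, against 77.2, 82.3 and 102 CPM in WT (log2FC -0.08, SE 0.145), and CO, which activates FT in long days, had a log2FC of 0.18 (SE 0.201).

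Of the 28 flowering genes 25 were tested, and 7 had a positive log2FC. At an unadjusted p under 0.05, 2 were higher (8%) and 3 lower (12%), against 2.97% and 4.06% of all genes. The median was -0.14 on the log2 scale, and TSF, AP1 and LFY had too few reads to be tested. Over the settings tried the median lay between -0.15 and 0.00. All plants were labelled as bolting, and no label gives the age in days or the leaf position of each plant, so a difference in either between Epi 10 and WT cannot be told apart from the line. Phloem markers (SUC2 and AHA3), of the tissue in which FT is made, summed to 447 to 483 CPM in Epi 10 and 382 to 428 CPM in WT, and their part in the level of FT was not tested.

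**Figure D3:**
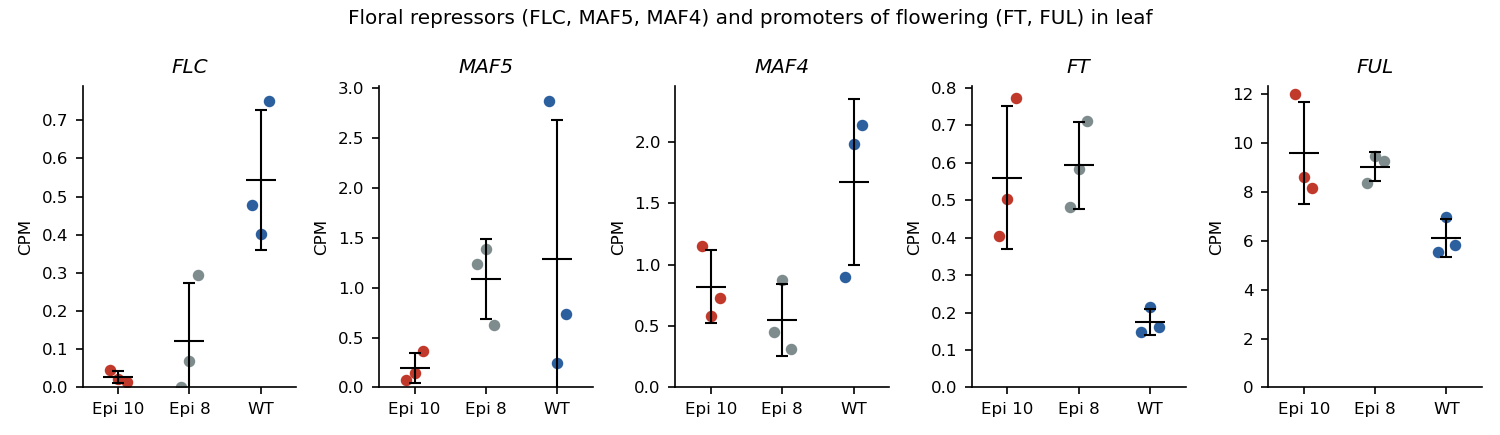
CPM (y axis, from 0) of the floral repressors FLC, MAF5 and MAF4 and of FT and FUL, which promote flowering, in the 3 leaf libraries each of Epi 10, Epi 8 and WT (points), with mean and SD (bars). Epi 10 lies below WT without overlap in FLC and above WT without overlap in FT and FUL, while MAF5 and MAF4 overlap.

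Nuclear photosynthesis genes mostly had a small negative log2FC. Of 44 genes, all tested, 42 had a negative log2FC, 9 were lower at an unadjusted p under 0.05 (20.5%, against 4.06% of all genes) and 0 were higher. The median was -0.20 on the log2 scale, and in Epi 8, against the same WT plants, it was -0.22. LHCB2.2 codes for a protein of the light-harvesting antenna of photosystem II, and it was at 369, 327 and 292 CPM in Epi 10, against 591, 515 and 428 CPM in WT. LHCB2.1 was at 299, 304 and 256 CPM in Epi 10, against 490, 451 and 338 CPM in WT. In both genes all Epi 10 plants were below all WT plants (LHCB2.2: log2FC -0.64, SE 0.140; LHCB2.1: log2FC -0.57, SE 0.142). The pair are near-identical copies, and reads that fit both were not counted, so the counts cover only the parts that differ. LHCB2.3, another gene of the family, was described here after its values were seen. It was also lower in every Epi 10 plant, at 87.5, 82.0 and 68.6 CPM, against 134, 114 and 90.5 CPM in WT (log2FC -0.51, SE 0.143).

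The other photosynthesis genes at an unadjusted p under 0.05 belonged to both photosystems. Those of photosystem I were LHCA1 (log2FC -0.38), LHCA4 (-0.30), PSAK (-0.34) and PSAO (-0.45), and those of photosystem II were LHCB1.1 (-0.59) and PSBO2 (-0.37). The genes with a positive log2FC were LHCB4.3 (0.37, SE 0.258) and PSBY (0.00, SE 0.137). Averaged over the list and set against the mean of the WT plants, the log2 level was -0.08, -0.21 and -0.34 in Epi 10 plants 1 to 3, against 0.15, 0.05 and -0.20 in the WT plants, so the groups overlapped through plant 3 of WT and plant 1 of Epi 10. The number lower at an unadjusted p under 0.05 was 21 without plant 3 of WT (47.7%, against 5.39% of all genes in that fit). It was 5 (11.4%) both without plant 3 of Epi 10 and without plant 2 of WT, where 4.54% and 2.16% of all genes were lower. Without plant 1 of WT it was 6 (13.6%, against 3.56%), and the median lay between -0.31 and -0.11 over the settings. Of the 5 mesophyll markers, RBCS1A, LHCB1.3 and LHCA1 are members of this list, so they are no separate observation. The markers outside it, CA1 and RCA, had log2FC of -0.05 and -0.12, with unadjusted p of 0.693 and 0.318 in edgeR's quasi-likelihood test. The part of mesophyll in these values was not tested.

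Genes with the words ribosomal protein in their description also mostly had a small negative log2FC. The words for chloroplasts and mitochondria were left out, but the list still held organelle members and genes that are no part of the ribosome, so it is not a list of cytosolic ribosomal proteins. Of its 350 genes 289 were tested, 254 with a negative log2FC. The list had 67 members lower (23.2%) and 2 higher (0.692%) at an unadjusted p under 0.05, against 4.06% and 2.97% of all genes. The median log2FC was -0.17. In 86 tested members with a 40S, 60S or eukaryote-type name such as L31e, a subset taken after the members were seen, 72 had a negative log2FC, 27 were lower (31.4%) and 1 higher (1.16%), with a median of -0.19. AT5G56710, an L31e protein of the large subunit, was at 132, 129 and 133 CPM in Epi 10, against 157, 205 and 184 CPM in WT (log2FC -0.47, SE 0.120). AT1G07070, an L35Ae protein, was at 14.5, 13.7 and 13.1 CPM in Epi 10, against 17.36, 22.1 and 16.8 CPM in WT (log2FC -0.45, SE 0.118). Both were lower in all Epi 10 plants.

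Members of other kinds included the plastid proteins PSRP3/1 (log2FC -0.33), PRPL35 (-0.33) and RFC3 (-0.41), all among the lower genes, the transcription factor TCP20, the elongation factor LOS1, and S6K2, a kinase of a ribosomal protein, which was 1 of the 2 genes with a higher level. They were chosen after the values were seen. The mean level of the list against WT was -0.05, -0.22 and -0.24 on the log2 scale in Epi 10 plants 1 to 3, and 0.03, 0.07 and -0.10 in the WT plants, so that plant 3 of WT lay below plant 1 of Epi 10. In Epi 8 it was -0.37, -0.47 and -0.43, lower than in every Epi 10 plant. AT1G07070 was at 10.1, 9.76 and 9.73 CPM in Epi 8, with a log2FC of Epi 10 over Epi 8 of 0.48 (SE 0.119, adjusted p = 0.454). The count of lower genes was unstable, and so was the share of all genes that were lower. Among the Epi 10 plants it was 107 of the 289 without plant 1 (37%, against 4.79% of all genes in that fit), 17 without plant 2 (5.88%, against 1.52%) and 29 without plant 3 (10%, against 4.54%). Among the WT plants it was 43 without plant 1 (14.9%, against 3.56%), 23 without plant 2 (7.96%, against 2.16%) and 94 without plant 3 (32.5%, against 5.39%). The median stayed between -0.25 and -0.13.

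Defense genes of the salicylic acid pathway had the largest positive median of the lists with all 9 libraries, at 0.55. Salicylic acid made through ICS1 accumulates after infection and turns on genes such as PR1, and FMO1 makes the mobile signal N-hydroxypipecolic acid. PR1 was at 200.5, 479 and 103 CPM in Epi 10, against 41.5, 130 and 108 CPM in WT, so the groups overlapped (log2FC 1.48, SE 0.680). FMO1 was at 1.89, 4.11 and 1.55 CPM in Epi 10, against 0.535, 1.14 and 0.79 CPM in WT, without overlap (log2FC 1.62, SE 0.710). ICS1 had a log2FC of 0.83 (SE 0.534), PR2 0.89 (SE 0.602) and PR5 1.23 (SE 0.644).

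Of the 26 salicylic acid genes, all tested, 23 had a positive log2FC and 1 was higher at an unadjusted p under 0.05 (3.85%, against 2.97% of all genes). The plants of a group differed widely, at 0.54, 1.06 and 0.14 in Epi 10, 0.28, 0.10 and 1.65 in Epi 8, and -0.34, 0.22 and 0.12 in WT, as the mean log2 level of the list against WT. Plant 2 of Epi 10 and plant 3 of Epi 8 were the highest. Without plant 3 of Epi 8, 13 members were higher at an unadjusted p under 0.05 (50%, against 5.93% of all genes in that fit), without its plant 2, 4, and without its plant 1, 2. Without plant 3 of Epi 10, 7 were higher (26.9%, against 3.95%), and without plant 2 of Epi 10 or any 1 WT plant, 0 were. The median was 0.29 without plant 2 of Epi 10.

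Pattern-triggered immunity, the response to conserved microbial molecules, gave 19 of 25 members with a positive log2FC and a median of 0.14. Its members included 2 higher at an unadjusted p under 0.05 (8%, against 2.97% of all genes). NHL10, a marker of this response, was at 1.36, 2.67 and 0.957 CPM in Epi 10, against 0.364, 0.604 and 0.536 CPM in WT (log2FC 1.74, SE 0.547). CYP71A13, a cytochrome P450 of camalexin synthesis, was at 9.14, 18.25 and 5.61 CPM in Epi 10, against 5.24, 3.51 and 4.26 CPM in WT (log2FC 1.34, SE 0.429). Neither gene overlapped between the groups, and in both plant 2 of Epi 10 was the highest. CYP71A13 overlaps a gene on the other strand.

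W boxes, the words bound by WRKY transcription factors, are shown for the defense genes named because most pattern-triggered immunity genes carry them, while the salicylic acid list was near the share of all genes. The word TTGAC, on either strand, occurred in the 300 bases before the start of 21 of 25 pattern-triggered immunity genes (84%) and 14 of 26 salicylic acid genes (53.8%), against 50.1% of all tested genes. The sites lie at chr2:15110469-15110491 on the plus strand for NHL10, and at chr2:13112117-13112143 and chr2:13112101-13112127 for CYP71A13 and chr2:6242630-6242656 for PR1, all 3 on the minus strand. The word or its reverse complement is in capitals.
NHL10: aatattctttgGTCAAttattca
CYP71A13, first site: aacgaataaaaTTGACgtcctgcacta
CYP71A13, next site: gtcctgcactaTTGACagaaaacgatg
PR1: taaggacaagaTTGACaaaaaaatagt
FMO1 had no match in this window. A match is only a description of the letters.

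**Figure D4:**
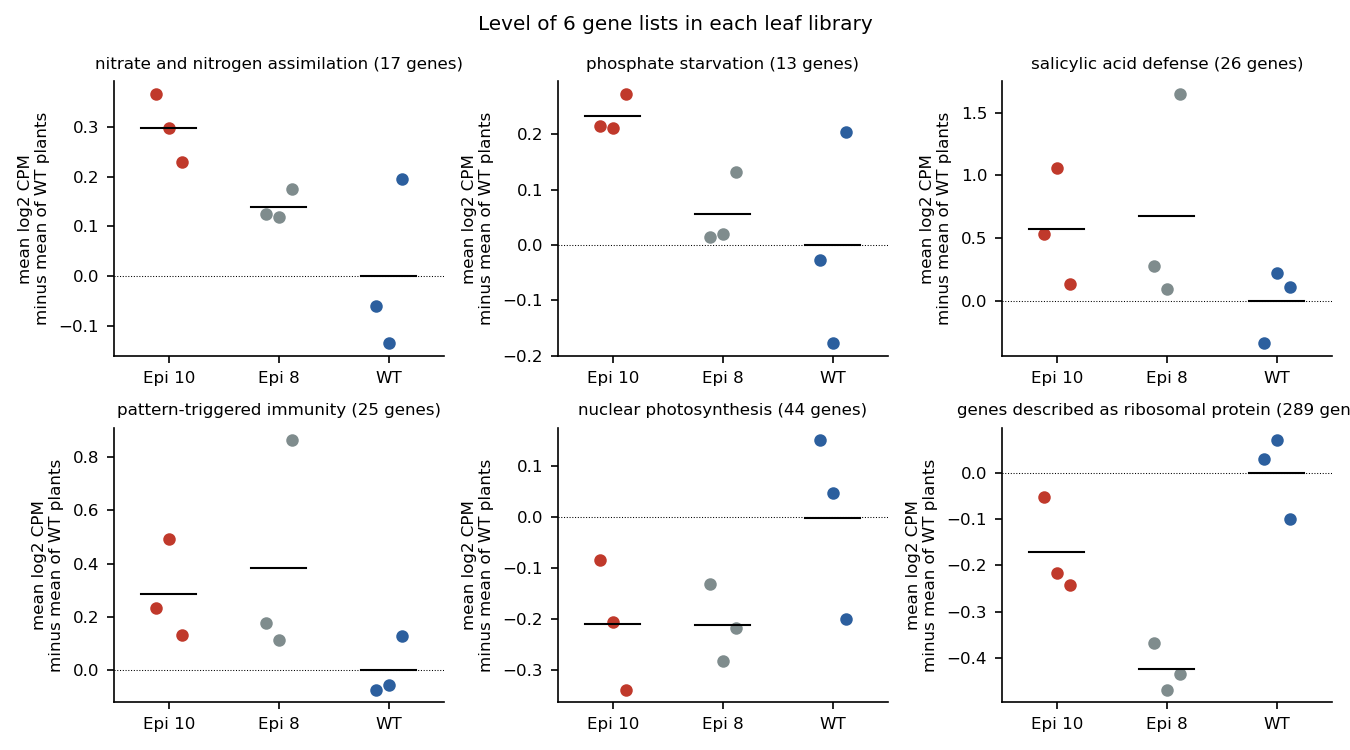
Mean log2 CPM of the members of 6 gene lists in each leaf library, minus the mean of the 3 WT plants (y axis), for Epi 10, Epi 8 and WT (points are plants, bars are means). Epi 10 plants lie at 0.14 to 1.06 in the salicylic acid list, against -0.34 to 0.22 in WT, and at -0.34 to -0.08 in photosynthesis, overlapping WT.

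Of the clock genes expressed at dawn, LHY and CCA1 were above WT in every Epi 10 plant, as were 6.34% of all genes. LHY was at 4.18, 3.87 and 4.25 CPM in Epi 10, against 2.02, 1.96 and 3.31 CPM in WT (log2FC 0.76, SE 0.212), and CCA1 was at 3.07, 3.45 and 2.64 CPM in Epi 10, against 1.8, 2.00 and 2.52 CPM in WT (log2FC 0.54, SE 0.195). These MYB-like repressors peak together after dawn, and both act on the evening genes. They were the only 2 of 11 morning genes with an unadjusted p under 0.05, and the median of the list was 0.07. Of the 10 evening genes, 5 had a positive log2FC and 0 had an unadjusted p under 0.05, with values such as BOA at 0.20 (SE 0.115) and FKF1 at -0.13 (SE 0.089) and a median of -0.01. The hour at which each plant was sampled is not given in the sources used here, so it cannot be told apart from the line.

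Light signalling genes lay on both sides of WT, with 13 of 17 tested members positive and a median of 0.07. Among them 2 were higher and 2 lower at an unadjusted p under 0.05 (11.8% each, against 2.97% and 4.06% of all genes). PIF7, a growth-promoting factor of shade responses, was at 13.1, 13.7 and 13.1 CPM in Epi 10, against 18.5, 21.2 and 16.0 CPM in WT (log2FC -0.48, SE 0.109). Epi 8 was at 17.8, 18.1 and 17.5 CPM, on the side of WT, and the log2FC of Epi 10 over Epi 8 was -0.42 (SE 0.109, adjusted p = 0.511). PHYB, the red light receptor that acts against PIF proteins, was at 91.8, 95.4 and 96.2 CPM in Epi 10, against 79.6, 73.2 and 86.7 CPM in WT (log2FC 0.24, SE 0.082). PIF7 overlaps a gene on the other strand.

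Cold and drought genes included abundant proteins that protect membranes. COR15A was at 332, 386 and 382 CPM in Epi 10, against 543, 451 and 440 CPM in WT (log2FC -0.38, SE 0.156), and its neighbour COR15B at 215, 229 and 220 CPM in Epi 10, against 292, 356 and 234 CPM in WT (log2FC -0.41, SE 0.142). Both were lower in every Epi 10 plant. They were the 2 of 19 cold genes with an unadjusted p under 0.05 (10.5%, against 4.06% of all genes lower). The median of the list was -0.06. Of the 24 tested abscisic acid and drought genes 20 were positive, with a median of 0.20. There 3 were higher (12.5%) and 1 lower (4.17%) at an unadjusted p under 0.05, against 2.97% and 4.06% of all genes. The lower one was RD22, a dehydration gene, with 150, 175 and 163 CPM in Epi 10, against 206, 241 and 179 CPM in WT (log2FC -0.36, SE 0.146), and HAB1, a phosphatase that blocks abscisic acid signalling, was at 25.9, 34.1 and 42.2 CPM in Epi 10, against 24.8, 25.8 and 28.5 CPM in WT (log2FC 0.37, SE 0.150), with overlap.

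The CRT word CCGAC, bound by the CBF factors of the cold response, is shown for the COR15 pair because both genes carry it. It occurred on either strand before 8 of 19 cold genes (42.1%), against 15.1% of all tested genes. The sites are on the minus strand, with the word or its reverse complement in capitals. Those of COR15A are at chr2:17712457-17712483 and chr2:17712394-17712420, and that of COR15B is at chr2:17710683-17710709. The COR15B site lies inside the annotated COR15A gene (chr2:17710441-17712330), so it need not belong to a COR15B promoter.
COR15A, first site: cttgcaaccttGTCGGtttattttgtg
COR15A, next site: taacttgttggCCGACatacatttgtt
COR15B: atcatctagaaGTCGGtatgccacacc
CBF1, which binds this word, had few reads, with 17, 43 and 75 in Epi 10, against 47, 26 and 13 in WT.

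Genes of DNA methylation mostly had a log2FC near 0. Among 33 tested genes of DNA methylation and RNA-directed DNA methylation, 20 were positive and the median was 0.04. DCL4, which cuts small interfering RNAs, was higher in all plants, at 48.5, 52.7 and 49.5 CPM in Epi 10, against 45.4, 40.9 and 42.5 CPM in WT (log2FC 0.23, SE 0.085). It was the only member with an unadjusted p under 0.05, a share of 3.03%, near the 2.97% of all genes higher. CMT2, a methyltransferase of non-CG sites, was at 32.9, 25.1 and 28.02 CPM in Epi 10, against 36.6, 36.3 and 31.0 CPM in WT (log2FC -0.27, SE 0.134). The 9 methylation hubs named by the study, a list it built from the methylation of other MSH1-derived plants and another epi-line, held 8 genes with a positive log2FC and 0 with an unadjusted p under 0.05, with SYD at 0.25 (SE 0.118) and UPF1 at 0.14 (SE 0.092) and a median of 0.15.

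Organelle genome maintenance, to which MSH1 belongs, had a median log2FC of -0.01 over 9 genes and 0 members with an unadjusted p under 0.05. WHY2, a DNA-binding protein of mitochondria, was at 33.0, 32.2 and 30.7 CPM in Epi 10, against 35.2, 34.6 and 35.5 CPM in WT (log2FC -0.13, SE 0.076). In Epi 8 it was at 24.4, 23.4 and 25.4 CPM, below all plants of both groups, and the log2FC of Epi 10 over Epi 8 was 0.39 (SE 0.076, adjusted p = 0.307). POLIB, an organelle DNA polymerase, had a log2FC of -0.09 (SE 0.106). Organelle stress genes had a median of 0.06, and 2 of 19 were higher at an unadjusted p under 0.05 (10.5%, against 2.97% of all genes). SIG5, a plastid sigma factor, was at 7.97, 8.33 and 7.02 CPM in Epi 10, against 4.92, 4.64 and 6.23 CPM in WT (log2FC 0.56, SE 0.171). The other was ANAC013, a regulator of mitochondrial stress (log2FC 0.28, SE 0.110).

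Metabolic lists held a few further genes. In flavonoid synthesis 13 of 22 tested genes were positive. An unadjusted p under 0.05 marked 3 higher (13.6%) and 1 lower (4.55%), against 2.97% and 4.06% of all genes. The median of the list was 0.17. That median was -0.06 without plant 1 of Epi 10 and 0.93 without plant 3 of WT, and the mean level of the list against WT was 1.00, 0.26 and -0.23 in Epi 10, against -0.63, -0.48 and 1.11 in WT, so the groups overlapped. CHI, the chalcone isomerase early in the pathway, was at 12.2, 9.24 and 8.76 CPM in Epi 10, against 4.91, 6.40 and 8.33 CPM in WT (log2FC 0.62, SE 0.191), and MYBL2, a repressor of the pathway, was at 5.02, 8.79 and 11.2 CPM in Epi 10, against 13.0, 11.9 and 11.7 CPM in WT (log2FC -0.55, SE 0.228). In plant 1 of Epi 10 CHI was the highest and MYBL2 the lowest of the 6 plants. In starch and sugar status, which holds QQS, 2 of 26 were higher and 2 lower (7.69% each, against 2.97% and 4.06% of all genes). The median of this list was 0.03. DIN10, a raffinose synthase family gene, was at 21.9, 27.3 and 28.9 CPM in Epi 10, against 36.4, 39.9 and 32.6 CPM in WT (log2FC -0.48, SE 0.118).

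Iron genes had 15 of 19 tested members positive and a median of 0.11 (0.045 without plant 2 of Epi 10 and 0.29 without plant 3 of WT). Of the 19, 2 were higher at an unadjusted p under 0.05 (10.5%, against 2.97% of all genes). YSL1, a transporter of iron bound to nicotianamine, was at 16.6, 22.9 and 26.3 CPM in Epi 10, against 14.1, 12.8 and 18.4 CPM in WT (log2FC 0.54, SE 0.192), and NAS3, a nicotianamine synthase, had a log2FC of 1.02 (SE 0.421). Both overlapped between the groups. Glucosinolate genes had 20 of 26 positive, 0 with an unadjusted p under 0.05 and a median of 0.13, with CYP83B1 at 0.21 (SE 0.107) and CYP79F2 at 0.33 (SE 0.171).

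Growth genes mostly had a negative log2FC. All 8 cell division genes had a negative log2FC, with a median of -0.26 (-0.42 without plant 1 of Epi 10 and -0.10 without plant 1 of WT). In Epi 8, against the same WT plants, the median was -0.55, and the lists were not tested between the lines. An unadjusted p under 0.05 marked 1 gene (12.5%, against 4.06% of all genes lower), the D-type cyclin CYCD3;1. It was at 7.75, 5.43 and 6.46 CPM in Epi 10, against 10.5, 8.57 and 7.73 CPM in WT (log2FC -0.45, SE 0.168). KNOLLE, a syntaxin of the forming cell plate, was at 6.02, 4.14 and 5.44 CPM in Epi 10, against 6.27, 6.83 and 6.40 CPM in WT (log2FC -0.32, SE 0.206). As the mean level of the 8 genes, plant 1 of Epi 10 lay above 2 of the WT plants. Among 18 cell wall growth genes 12 were negative, 1 lower at an unadjusted p under 0.05 (5.56%, against 4.06% of all genes), and the median was -0.08. XTH4, which remodels xyloglucan, was at 63.2, 61.7 and 84.2 CPM in Epi 10, against 112, 136 and 83.5 CPM in WT (log2FC -0.67, SE 0.248), and XTH9 had a log2FC of -0.40 (SE 0.188). Auxin response genes had 13 of 16 negative, 0 with an unadjusted p under 0.05 and a median of -0.19 (-0.34 without plant 3 of Epi 10 and 0.005 without plant 2 of WT), with IAA7 at -0.29 (SE 0.172) and IAA6 at -0.52 (SE 0.330).

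**Figure D5:**
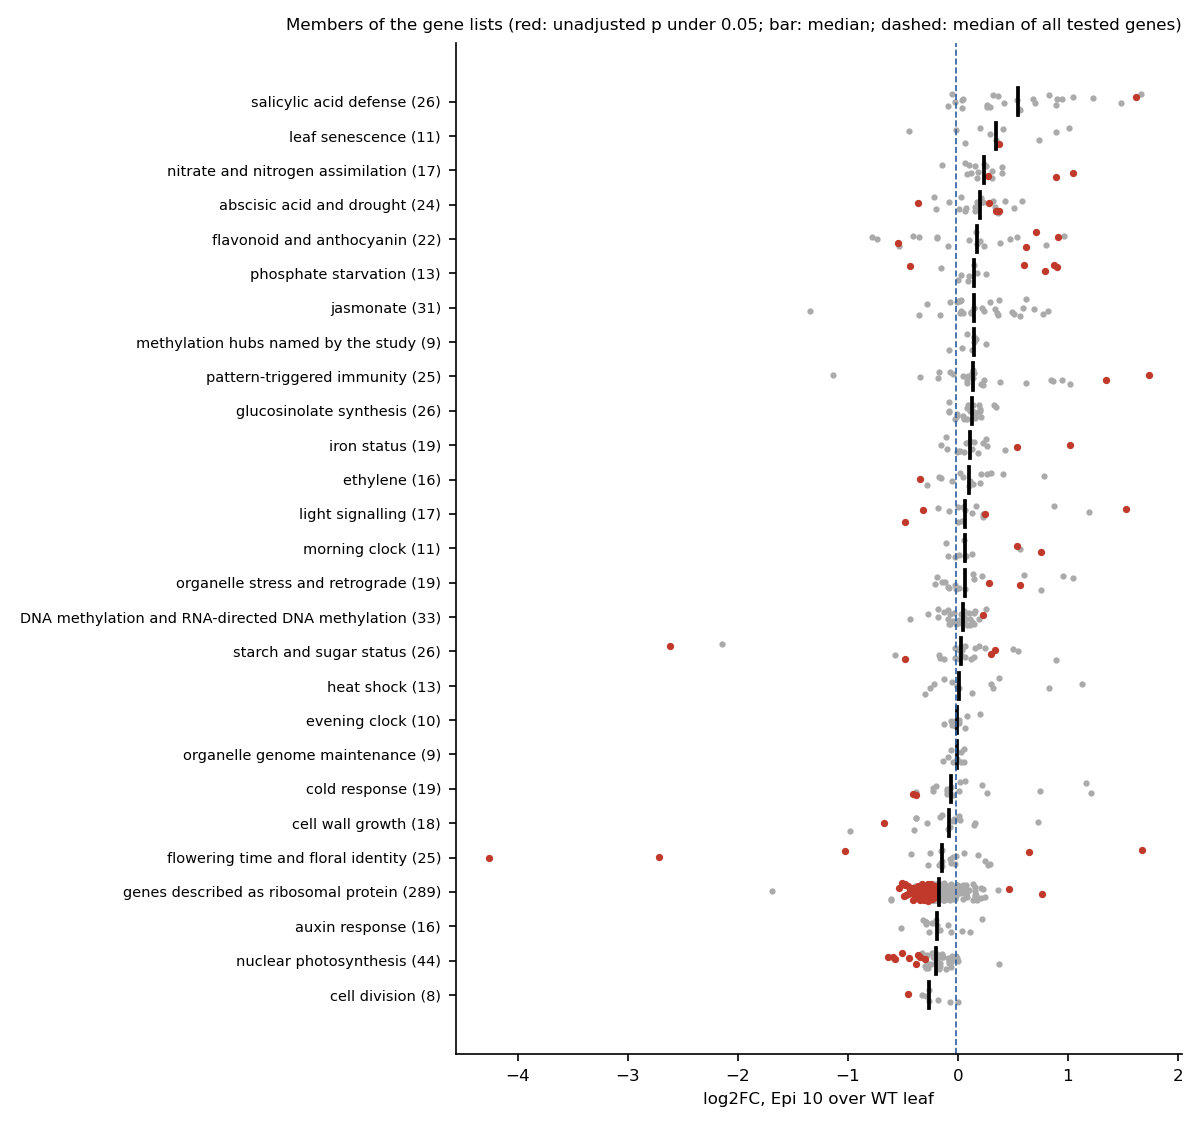
Log2FC of Epi 10 over WT leaf (x axis) for each tested member of 27 gene lists (y axis, number tested in brackets), ordered by median (black bar), with members at an unadjusted p under 0.05 in red and the median of all genes as a dashed line. With all 9 libraries salicylic acid defense has the highest median, 0.55, and cell division the lowest, -0.26, values that moved when 1 plant was left out, while the points of most lists lie on both sides of 0.

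Hormone and stress lists held few genes with an unadjusted p under 0.05. Jasmonate genes had 25 of 31 positive, 0 with an unadjusted p under 0.05 and a median of 0.15 (-0.06 without plant 1 of Epi 10 and 0.62 without plant 3 of WT), with CYP94C1, which breaks the hormone down, at 0.78 (SE 0.399) and TAT3 at 0.82 (SE 0.422), both highest in plant 1 of Epi 10. Ethylene genes had 11 of 16 positive and a median of 0.11, with EBF1 at 0.20 (SE 0.113). Leaf senescence genes had 9 of 11 tested members positive and a median of 0.35 (0.10 without plant 3 of Epi 10 and 0.48 without its plant 1), with WRKY6 at 0.37 (SE 0.165) and JUB1 at 0.89 (SE 0.422). Heat shock genes had 7 of 13 positive, 0 with an unadjusted p under 0.05 and a median of 0.02, with HSP17.6A at 1.13 (SE 0.588) and HSP70 at 0.38 (SE 0.248).

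Long noncoding RNA genes were rarely expressed in leaf, and 363 of 3480 were tested. Of these, 10 were higher and 10 lower at an unadjusted p under 0.05 (2.75% each, against 2.97% and 4.06% of all genes). Their median log2FC was -0.03. AT3G06355 was at 10.6, 9.77 and 9.13 CPM in Epi 10, against 15.2, 15.2 and 12.6 CPM in WT (log2FC -0.54, SE 0.116). It overlaps AT3G41979 on the same strand, so its level may not be that of a separate noncoding RNA. AT4G04435 was at 5.05, 6.30 and 5.61 CPM in Epi 10, against 7.79, 6.96 and 7.53 CPM in WT (log2FC -0.39, SE 0.121). Both were lower in all Epi 10 plants. Of the genes named above, AT4G04435, PAP17, COR15B, LHCB2.3, LHCA4, BOA, FKF1, DIN10, ANAC013, JUB1, WHY2 and KNOLLE also overlap a gene on the other strand, and POLIB and CYCD3;1 a gene on the same strand.

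Between the lines, Epi 10 against Epi 8 also gave 0 called genes (0%), with a smallest FDR of 0.259 for GRP4 and 1420 genes at an unadjusted p under 0.05 (7.08%). Of the 65 genes named by rule 0 were called and 13 had an unadjusted p under 0.05. Set against the same 3 WT plants, Epi 8 had 36 genes called higher (0.18%) and 155 called lower (0.773%), where Epi 10 had 0 in each direction. This difference between the counts was not tested, and the direct test between the lines is printed above for only some of the named genes. Among the genes named, AT1G22550, SPX1, PIF7, RD22, YSL1, CHI, AT3G06355 and AT4G04435 had an Epi 8 mean nearer to WT. AT3G24420, AT1G30250, QQS, PHE1 and FT had an Epi 8 mean nearer to Epi 10. Both groups are examples and do not divide all the named genes. None of these genes was called between the lines.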

How the data were processed

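RNA-seq counts were analysed for 9 leaf libraries, 3 plants each of Epi 10, Epi 8 and WT, grouped by their labels. The authors trimmed reads with TrimGalore, aligned them with STAR 2.7.3a to TAIR10, kept unique alignments with a mapping quality of at least 25 in QoRTs, and deposited raw counts per gene without normalization. Their own tests used edgeR 3.26.8. Lines of uncounted reads were left out (outside genes 0.681 to 0.995% and ambiguous 0.254 to 0.299% of the total). Of 33977 genes, 9398 had no read in leaf and 20052 passed filterByExpr. All 9 libraries were scaled by TMM and fitted with edgeR 4.0.16 (R 4.3.3), and groups were compared by the two-sided quasi-likelihood test with Benjamini-Hochberg adjustment over all tested genes. A standard error is the log2FC over the square root of the F statistic, and 2 was the prior count for log2 CPM. DESeq2 1.42.0, edgeR's likelihood ratio and exact tests, other scaling and filters, the 6 libraries alone and each library left out were tried as alternatives.

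Names and positions came from the RefSeq annotation of TAIR10.1, which held 32548 of the loci, and 1873 of 1873 genes of a published list had the same start and end. Genes were named by rule: MSH1, the 5 genes in each direction with the smallest p, a mean of at least 1 CPM and no overlap between plants, and the 2 smallest p of each list. Of 527 list loci 507 were tested. Transposable element genes were not analysed here, as the annotation has no such type. Members and lists were chosen with earlier results of these data known. Plants with the same number were not paired, since the correlations of their deviations were -0.078, -0.01 and -0.184. No 2 plants of a group agreed within sampling noise (chi-square over degrees of freedom 20.62 to 95.45), and the labels give separate plants. The script was tested on simulated data. A withheld gene-level result is not reported here.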

Additional observations from a re-analysis of the deposited data

How the results depend on the processing

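The count of called genes between Epi 10 and WT, 0 in edgeR's quasi-likelihood test on all 9 libraries, remained 0 with RLE scaling, without a filter, with a filter at 1 CPM, without a fold limit and when any 1 plant of Epi 10 or WT was left out. It was 17 with edgeR's likelihood ratio test, 21 with DESeq2, 3 on the 6 Epi 10 and WT libraries alone, 58 with the exact test on those 6, and 452 by unadjusted p with the fold limit. Leaving out 1 library in turn gave 0 to 2, with the highest counts without an Epi 8 plant, an alternative chosen after seeing the data. With the replicate number as a block the count was 0, and the plants were not shown to be paired. Of the 65 named genes, 0 were called between Epi 10 and Epi 8, 2 by the likelihood ratio test, 4 by DESeq2, 2 by the exact test, 0 with the block, and 0 to 1 when 1 library was left out. The cause of these differences was not tested. The log2FC of MSH1 lay between -0.019 and 0.187 when 1 library was left out, and was negative without plant 2 or plant 3 of WT. Of the other log2FC of named genes under an alternative, 1158 kept their direction and side of the threshold and 72 passed it. The sign of the median turned in at least 1 setting in 10 lists, which were auxin, both clock lists, flavonoid, flowering, heat shock, jasmonate, light, long noncoding RNA and organelle genome maintenance. With 3 plants a group and a biological coefficient of variation of 0.175, and with FLC and FT at few reads, small differences could not be separated from the spread between plants.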

Other observations

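DESeq2 and other tests called some genes outside the naming rule, described here after their values were seen. LAC10, a laccase, was at 1.36, 0.974 and 0.985 CPM in Epi 10, against 0.285, 0.215 and 0.0938 CPM in WT (log2FC 2.46, SE 0.438 in edgeR's quasi-likelihood test), and Epi 8 was at 1.29, 1.35 and 0.65 CPM. HAE, a receptor kinase of organ shedding, was at 68.7, 74.1 and 55.0 CPM in Epi 10, against 50, 42.6 and 46.7 CPM in WT (log2FC 0.51, SE 0.114). AT5G44020, annotated as an acid phosphatase of the HAD superfamily, was at 65.3, 65.4 and 75.7 CPM in Epi 10, against 130.2, 115 and 98.2 CPM in WT (log2FC -0.73, SE 0.164). None of the 3 overlapped between Epi 10 and WT.

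Because AT3G24420 lies 33.1 kb from MSH1, the tested genes around MSH1 were counted after this was seen. AT3G24420, which prompted the count, was left out of it. Within 100 kb on either side, 2 of 22 other genes were higher (9.09%) and 1 lower (4.55%) at an unadjusted p under 0.05, against 2.97% and 4.06% of all genes. Within 250 kb, 3 of 80 were higher (3.75%) and 5 lower (6.25%), and their median was -0.06 on the log2 scale. Within 500 kb, 8 of 165 were higher (4.85%) and 5 lower (3.03%), and the median was -0.03.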
